A study of Homo sapiens with 22 samples.

Results

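Receptor-type protein tyrosine phosphatases are membrane-spanning enzymes, and 10 of their genes were examined here: PTPRO, PTPRS, PTPRD, PTPRF, PTPRG, PTPRK, PTPRM, PTPRJ, PTPRC and PTPRN2. They were taken from 19970 protein-coding genes in which called peaks of open chromatin were measured by ATAC-seq, an assay in which the Tn5 transposase cuts accessible DNA. PTPRO and PTPRS were chosen by their covered bp in the cells labelled TKO, where PTPRO lost and PTPRS gained peaks, and the other 8 as their relatives, so the contrast between TKO and its day 0 control chose the members and is given below as a description, with no p-value. A member's window is its gene body with 5 kb on either side, and its value is the number of base pairs inside called peaks, here called covered bp. Peaks of all libraries were also merged into 96166 regions, of which 219 lie in the 10 windows.

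The 22 libraries came from KMS11 and KMS34, established human multiple myeloma lines whose labels give bone marrow as the tissue. Every group was labelled t(4;14), the translocation that brings NSD2, a histone H3 lysine 36 methyltransferase, under immunoglobulin heavy chain control, except the KMS11 derivative whose genotype is given only as TKO. The labels do not expand TKO or say whether it is 1 clone. Each line was sampled at day 0 without treatment and at days 4 and 10 in DMSO, the vehicle, or in NSD2LDD, a degrader of NSD2 whose concentration the labels do not give, and TKO was sampled at day 0. Each of the 11 groups held 2 libraries labelled as duplicates. Nothing in the labels says that these came from separate cultures, so the p-values measure the spread between these libraries, which may be technical.

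Receptor-type phosphatases remove phosphate from tyrosine residues and oppose tyrosine kinases, with extracellular parts that resemble adhesion molecules. PTPRS, PTPRD and PTPRF form the LAR subfamily, which binds heparan sulfate proteoglycans and synaptic adhesion partners. PTPRK and PTPRM bind their own kind on neighbouring cells, and PTPRG carries a carbonic anhydrase-like domain and binds contactins. PTPRO and PTPRJ have fibronectin repeats and a single catalytic domain. PTPRC, known as CD45, activates Src-family kinases in leukocytes and is often low on myeloma plasma cells, and PTPRN2 is a protein of secretory vesicles with little tyrosine phosphatase activity.

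The sequences before 4 transcription starts are shown because calls there differed between the lines or were absent. Each is the 250 bases upstream of a start listed by RefSeq on GRCh38.p14, written 5′ to 3′ on the gene's strand. Capitals mark matches, on either strand, to any of 8 short motifs that were chosen after the sequences had been looked at. They are the E-box CACGTG, the cAMP response element TGACGTCA, the AP-1 type motif TGANTCA, the TATA box TATAAA, the CCAAT box, the GC box GGGCGG, the MAF recognition core TGCTGAC and the ETS type motif GGAAGT. PTPRS lies on the minus strand of chromosome 19 and its window spans chr19:5340813-5341062.
PTPRS: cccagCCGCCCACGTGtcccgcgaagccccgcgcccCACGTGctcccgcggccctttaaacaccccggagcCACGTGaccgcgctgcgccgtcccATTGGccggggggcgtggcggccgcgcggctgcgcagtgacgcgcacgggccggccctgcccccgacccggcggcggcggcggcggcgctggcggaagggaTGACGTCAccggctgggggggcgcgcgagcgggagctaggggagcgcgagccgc
The first start of PTPRO, on the plus strand, has chr12:15322258-15322507 before it.
PTPRO start 1: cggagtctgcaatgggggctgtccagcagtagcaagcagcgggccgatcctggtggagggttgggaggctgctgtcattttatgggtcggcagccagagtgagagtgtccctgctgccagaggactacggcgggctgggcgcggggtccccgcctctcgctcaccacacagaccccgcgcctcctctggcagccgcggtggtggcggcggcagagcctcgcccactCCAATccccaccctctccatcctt
The second start of PTPRO has chr12:15546361-15546610 before it.
PTPRO start 2: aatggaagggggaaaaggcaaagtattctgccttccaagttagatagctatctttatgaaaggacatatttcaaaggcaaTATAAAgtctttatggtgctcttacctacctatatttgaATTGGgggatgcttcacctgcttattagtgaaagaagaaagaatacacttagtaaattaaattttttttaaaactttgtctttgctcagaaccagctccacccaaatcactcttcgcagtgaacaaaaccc
The second start of PTPRM, on the plus strand, has chr18:7946625-7946874 before it.
PTPRM start 2: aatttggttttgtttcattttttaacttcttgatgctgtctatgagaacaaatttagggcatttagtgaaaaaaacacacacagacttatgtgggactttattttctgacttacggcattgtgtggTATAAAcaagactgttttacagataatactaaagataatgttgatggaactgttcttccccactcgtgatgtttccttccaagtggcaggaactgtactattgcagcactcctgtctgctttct

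The PTPRS sequence holds 44 CG dinucleotides and 80.8% G or C, and CACGTG occurs in it 3 times, at 240, 214 and 179 bases before the start, counted to the first base of each match. CACGTG occurs at least once in 6.34% of the 35116 upstream sequences of the RefSeq table and 3 or more times in 0.08% of them. The PTPRS sequence also holds TGACGTCA at 54 bases before the start, a motif found in 1.65% of upstream sequences. PTPRO start 1 is 68.0% G or C and holds only a CCAAT at 24 bases, a motif in 32.01% of upstream sequences. The second starts of PTPRO and PTPRM are 36.0% and 36.4% G or C and hold TATAAA at 170 and 124 bases, a motif in 10.72% of upstream sequences. In PTPRS a CACGTG match shares a base with a GGGCGG match on the other strand, so the capitals run together there. A motif match describes letters in this window only.

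Deposited peak lists held 24979 to 52518 peaks and covered 11.5 to 31.8 Mb. KMS34 lists were longer, with 34165 to 52518 peaks against 24979 to 39002 in KMS11, and the TKO lists held 26887 and 30699. Read depth is not in the peak lists, so a region that was not called cannot be told from one sequenced too shallowly. Among listed plasma cell markers, 8 of 10 were covered in all 22 libraries (all but JCHAIN and SLAMF7), against 2 of 8 T and NK cell markers, 1 of 6 myeloid markers and 3 of 6 stromal markers. Of all 19970 protein-coding genes, 12018 were covered in all 22 libraries. The summed covered bp ranged from 6924 to 18805 in KMS11 and from 15682 to 28676 in KMS34 for the plasma markers. The same sums for T and NK markers were 701 to 4695 and 3004 to 6319, for myeloid markers 1065 to 1968 and 1350 to 2371, and for stromal markers 863 to 4016 and 3097 to 6073. The part of these marker differences in the line results below was not tested.

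PTPRO was covered in every library except the TKO pair. The day 0 KMS11 libraries had 3067 and 1148 covered bp and both TKO libraries had 0. The DMSO libraries of KMS11 had 2886 and 1952 bp at day 4 and 1887 and 3384 bp at day 10. Under NSD2LDD the same line had 3590 and 3352 bp at day 4 and 1625 and 4030 bp at day 10. All 10 t(4;14) KMS11 libraries therefore stood above the TKO pair, and the lowest of them was the day 0 library with the shortest peak list. In KMS34 the 10 libraries ran from 1176 to 2446 bp, with a median of 1850 bp.

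PTPRO has 16 regions, and none was called in TKO. Of these, 4 were called in both day 0 KMS11 libraries and in neither TKO library. The most widely called, chr12:15570842-15571619, lies 248.7 kb from the first start, in the 3′ part of the gene, and was called in all 20 libraries other than TKO. Its covered bp in KMS11 were 502 and 440 at day 0, 471 to 508 in DMSO and 143 to 689 under NSD2LDD, with NSD2LDD day 10 replicate 1 the lowest. KMS34 had 366 to 724 bp there. The neighbouring chr12:15590214-15590881, 268.0 kb from the first start, was called in 8 of 10 KMS11 libraries other than TKO and in 10 of 10 KMS34 libraries. Another, chr12:15517144-15518389, was called in 9 of 10 KMS11 libraries other than TKO and in 0 of 10 KMS34 libraries. The last, chr12:15393950-15394299, was called in 3 KMS11 libraries and 1 KMS34 library.

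The PTPRO peaks of day 0 KMS11 were of middle to low strength. Ranked by the deposited −log10 q within their own list, from the strongest, those at chr12:15570842-15571619 stood at 72.6% and 60.4% of the list. The peaks at chr12:15393950-15394299 stood at 96.8% and 90.0%, near the weakest. When only peaks with −log10 q of 5 or more were kept, day 0 KMS11 had 440 to 1749 bp in PTPRO and TKO again 0. When a region had to be covered over at least 50% of its length to count as called, 2 regions in place of 4 were in both day 0 libraries and in neither TKO library. Among all regions, 2760 were called in both day 0 libraries and in neither TKO library, and 72.3% of these were called in KMS34. For PTPRO it was 3 of 4.

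PTPRS showed the opposite arrangement. No peak was called in its window in any of the 10 t(4;14) KMS11 libraries, and the TKO libraries had 1729 and 500 covered bp. All 10 KMS34 libraries were covered, from 1221 to 3919 bp with a median of 2465 bp. The day 0 KMS34 libraries had 2301 and 1642 bp, so both lay above the weaker TKO library and on either side of the stronger one.

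Of 9 PTPRS regions, 2 were called in both TKO libraries and in no other KMS11 library. The first, chr19:5322078-5322744, lies 18.4 kb inside the gene and had 370 and 344 bp in TKO and 335 to 658 bp in the 9 KMS34 libraries that called it. The other, chr19:5287534-5288913, lies 52.6 kb inside the gene and had 442 and 156 bp in TKO and was called in 8 KMS34 libraries. The region chr19:5246391-5247041, 94.1 kb inside, was called in TKO replicate 1 only, with 357 bp, and in all 10 KMS34 libraries. The fourth TKO region, chr19:5330208-5330767, was called in TKO replicate 1 and nowhere else. Over all regions, 1307 were called in both TKO libraries and in neither day 0 library. Of these, 8.2% were called in KMS34 and in no other KMS11 library, as the 2 PTPRS regions were. PTPRS was chosen for its gain in TKO over day 0 KMS11, so nothing is read from this share.

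The start of PTPRS was not among the regions that appeared in TKO. Region chr19:5340089-5341200, which contains the start and the upstream sequence shown above, was called in 10 of 10 KMS34 libraries, with 354 to 1112 bp, and in 0 of 12 KMS11 libraries, TKO included. The TKO peaks were also unequal in strength. In replicate 1 the 4 PTPRS peaks stood at 52.7% to 78.1% of their list by −log10 q. In replicate 2 the 2 peaks stood at 97.7% and 99.3%, with −log10 q of 3.01 and 2.34. With peaks of −log10 q of 5 or more, TKO replicate 2 had 0 bp in PTPRS and replicate 1 still had 1729 bp. In replicate 2 both peaks were thus near the end of the list.

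**Figure D1:**
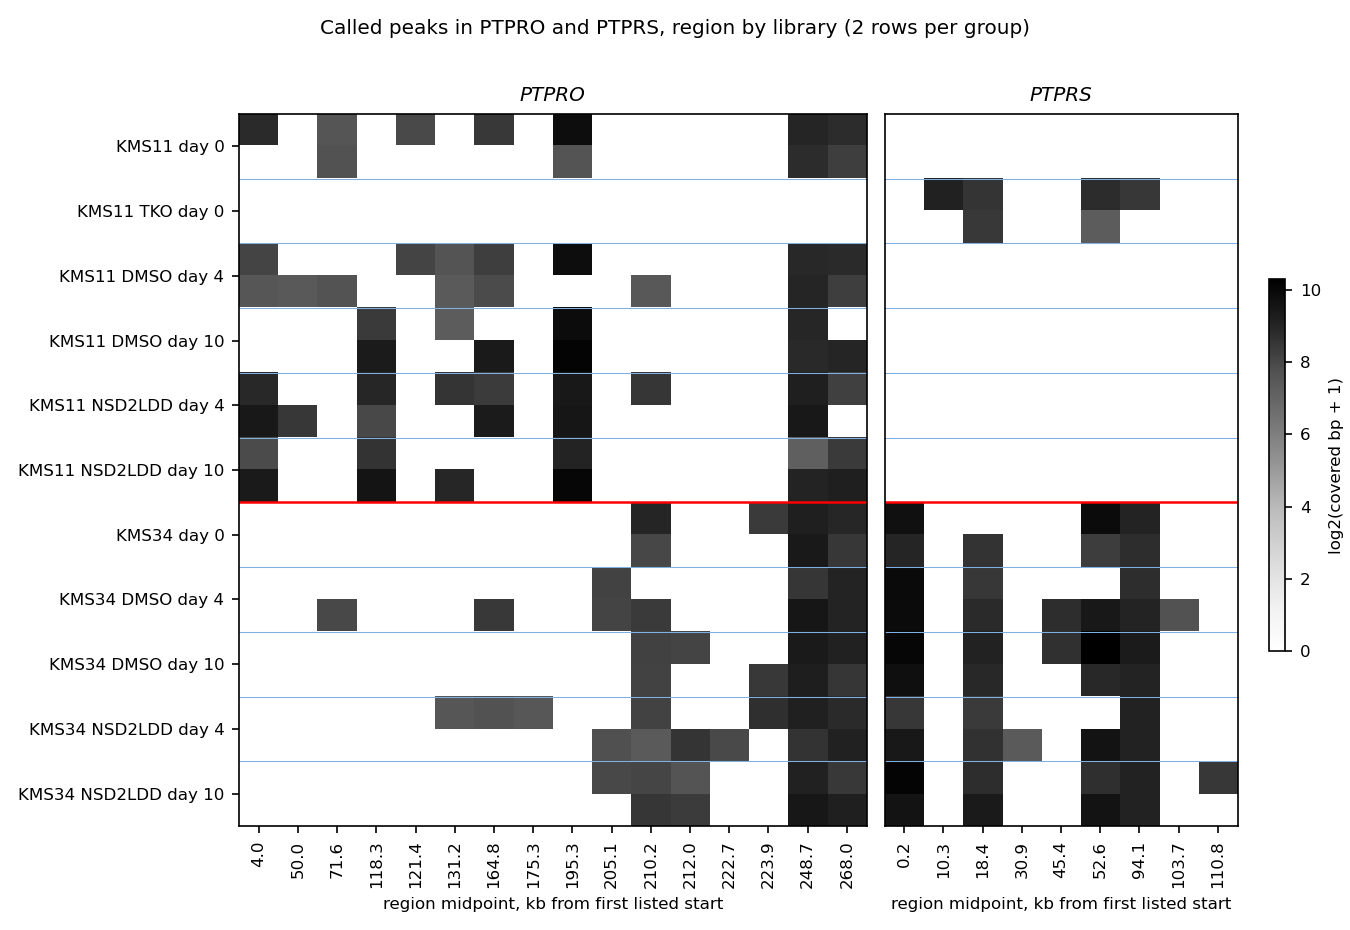
Each column is a merged region of PTPRO (left) or PTPRS (right), placed by its midpoint in kb from the first listed start, and each row is a library, 2 per group. Darker cells hold more covered bp on a log2(bp + 1) scale, the red line divides KMS11 from KMS34, the TKO rows are empty for PTPRO, and the first PTPRS column is filled in the 10 KMS34 rows alone.

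The other members were less sharply divided between TKO and day 0 KMS11, and most of their values overlapped. In a limma model over the 22 libraries, 4.69% of 16735 genes and 4.07% of 69187 regions differed between TKO and day 0 KMS11 at adjusted p under 0.05. The members past that threshold were PTPRO and PTPRS, 2 of 10 genes, and 5 of 141 regions, which restates the choice of the genes, and nothing is read from these counts. PTPRN2 had 293 and 338 bp at day 0 and 1133 and 1351 bp in TKO, and its groups did not overlap. One of the regions involved was chr7:158005607-158005998, called in both TKO libraries and in no other library. PTPRF had 272 and 0 bp at day 0 and 1273 and 270 bp in TKO, and the groups overlapped. PTPRC had 3374 and 1811 bp at day 0 and 2183 and 1319 bp in TKO, and PTPRJ had 1885 and 727 bp against 1172 and 1063 bp. PTPRD, PTPRG, PTPRK and PTPRM likewise overlapped between the groups. With 2 libraries in each group, values can easily separate. The share of all genes without overlap was not counted, so nothing is read from overlap or its absence here. PTPRM gained and lost 1 region each in both replicates: chr18:7575377-7576235 was called in both TKO libraries and neither day 0 library, yet was called in 5 of 8 other KMS11 libraries.

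The comparison of the lines, KMS34 against KMS11 in DMSO with 4 libraries each, asks how far the members differ between t(4;14) lines. Values were log2(bp + 200), less the library's median over genes covered in all libraries. By limma, 5 of 10 members differed at adjusted p under 0.05, 4 higher and 1 lower in KMS34, where 27% of all 16735 tested genes differed (15.5% higher and 11.5% lower). The median difference was 0.012 over the members and 0.038 over all genes. By region, 47 of 141 tested member regions differed (33.3%), 30 higher and 17 lower in KMS34, against 29.5% of 69187 regions, 17.6% higher and 11.9% lower. In 43 of the 47 regions every library of one arm was at 0, so that the size of the fitted difference depends on the pseudocount and none is given here as a fold. Such a region passed the filter on low values through the libraries in which it was called. Wherever 1 arm was at 0, the p-value given below for a region is a description, and nothing is read from its size. With lists shortened to equal length, 63 member regions could be tested and 19 of them were called, 8 higher and 11 lower in KMS34. Over all regions, 5626 were then called higher and 6485 lower.

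**Figure D2:**
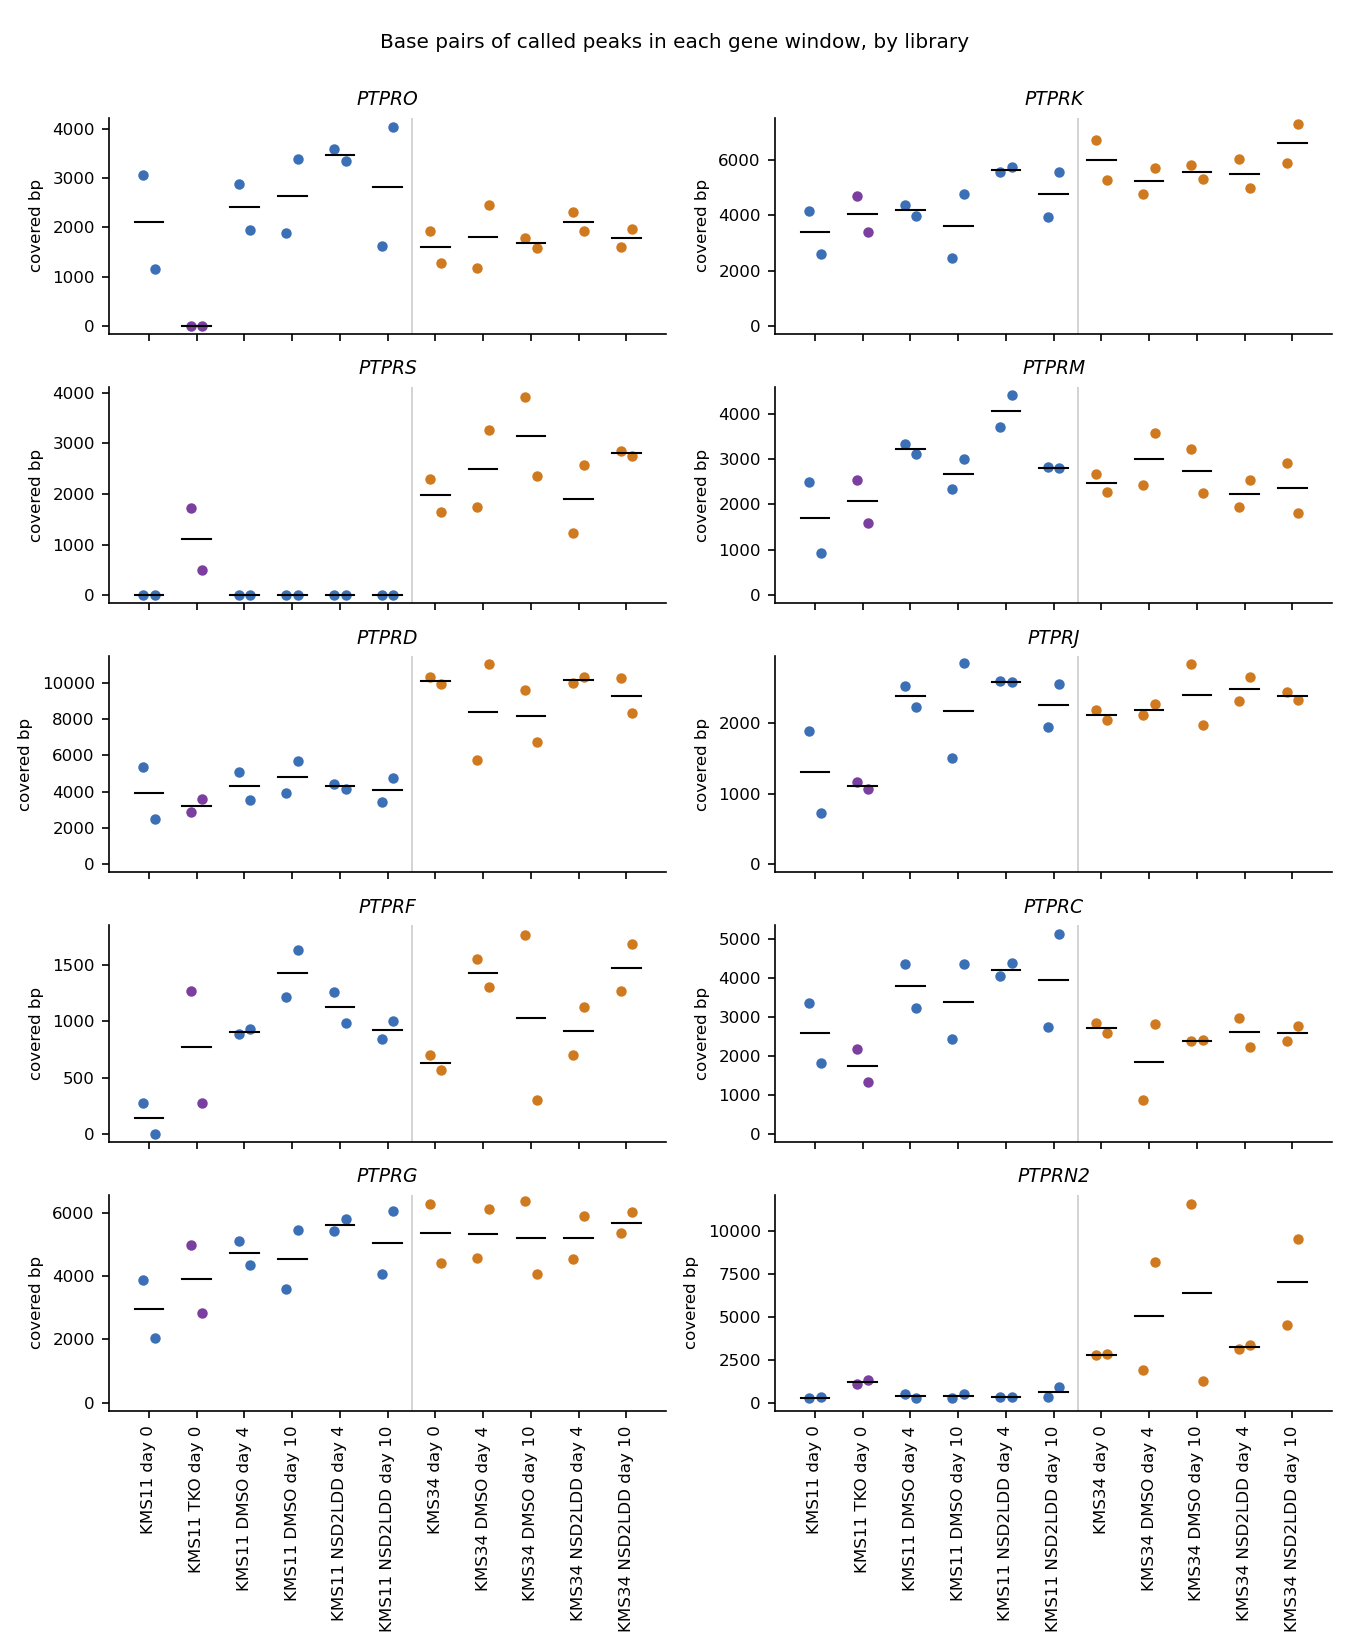
Covered bp of each gene window (linear axes), with a point per library and a bar at the mean of the 2 libraries of each group, in blue for KMS11, purple for TKO and orange for KMS34. PTPRS points are at 0 in all KMS11 groups but TKO, PTPRO points are at 0 in TKO alone, and PTPRN2 spreads from 1288 to 11552 bp in KMS34.

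PTPRS, a receptor of heparan and chondroitin sulfate proteoglycans, was at 0 in the KMS11 arm of this comparison. It had 0 bp in the 4 KMS11 DMSO libraries and 1739, 3253, 3919 and 2361 bp in KMS34 (2818 ± 962, SD, n = 4; limma adjusted p = 2.51e-08). PTPRS passed the filter on low values only through KMS34 and TKO, where it is high, so this p compares KMS34 with an arm at 0. PTPRS was also chosen for peaks gained in TKO over day 0 KMS11, the same line as that arm. The p-values of PTPRS and its regions are therefore descriptions, and nothing is read from their size. Of its 5 tested regions, 4 were called higher in KMS34. These were the start region (957 ± 71.5 bp, SD, n = 4, adjusted p = 1.75e-07), chr19:5246391-5247041 (528 ± 86.1 bp, adjusted p = 1.86e-05), chr19:5322078-5322744 (457 ± 76.5 bp, adjusted p = 0.000286, and 0.0872 with lists of equal length) and chr19:5287534-5288913 (616 ± 536 bp, adjusted p = 0.0123), all at 0 in KMS11 DMSO.

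PTPRD, another LAR receptor and the longest member at 2298.8 kb, had 4559 ± 1013 bp in KMS11 and 8271 ± 2465 bp in KMS34 (SD, n = 4 each). The groups did not overlap, and the log2 difference was 0.72 with SE 0.18 (limma adjusted p = 0.00782). With lists of equal length it fell to 0.48 (adjusted p = 0.14). Its start and 4 further regions were called in all 22 libraries, and 17 of its 34 tested regions were called in KMS34 only against 4 in KMS11 only. Of all 69187 tested regions, 20.1% were called in all libraries, 28.1% in KMS34 only and 13.8% in KMS11 only. KMS34 lists are longer, so nothing is read from the PTPRD counts. Called in all 10 KMS34 libraries and in no KMS11 library were chr9:10208009-10208864 (576 ± 182 bp in KMS34 DMSO), chr9:9998222-9999337 (502 ± 215 bp) and chr9:9847557-9848092 (313 ± 125 bp). Their adjusted p by limma were 3.2e-06, 7.93e-06 and 1.51e-05, which are descriptions, since no KMS11 library called them. With lists of equal length the first was no longer called (adjusted p = 0.19) and the last changed sign. They lie 404.6, 614.2 and 765.2 kb from the first start.

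PTPRF, the LAR receptor itself, did not pass by gene, with 1168 ± 346 bp in KMS11 and 1231 ± 650 bp in KMS34 (log2 difference −0.17, SE 0.30, adjusted p = 0.741). Single regions were called in opposite directions, though not under every setting. Region chr1:43550008-43550580, 19.4 kb past the listed start, was called in 10 of 10 KMS34 libraries and 0 of 12 KMS11 libraries (383 ± 91.9 bp in DMSO, adjusted p = 4.26e-06). Region chr1:43568911-43570123, 38.6 kb past the start, was called in 9 of 12 KMS11 libraries and 0 of 10 KMS34 libraries, with 320 ± 469 bp in KMS11 DMSO (adjusted p = 0.00929). With lists of equal length neither was called (adjusted p = 0.367 and 0.947), and the latter was also lost without KMS11 DMSO day 10 replicate 2 (adjusted p = 0.0548). A further region, chr1:43545732-43546238, was called in 3 of 4 KMS34 DMSO libraries and in no KMS11 DMSO library (adjusted p = 0.0103). It was lost with quantile normalization (adjusted p = 0.258) and with day 0 libraries added (adjusted p = 0.0657).

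PTPRK, an adhesion receptor, had 3885 ± 1013 bp in KMS11 and 5397 ± 477 bp in KMS34, with no overlap and a log2 difference of 0.40 (SE 0.12, adjusted p = 0.025). The gap was narrow, with 4749 bp in the highest KMS11 library and 4766 bp in the lowest KMS34 library. Without KMS11 DMSO day 10 replicate 1, its lowest library at 2439 bp, the difference was 0.26 (adjusted p = 0.137). The call also ended without KMS11 DMSO day 4 replicate 2 (0.33, adjusted p = 0.103), KMS34 DMSO day 4 replicate 1 (0.38, adjusted p = 0.0636) or KMS34 DMSO day 10 replicate 2 (0.32, adjusted p = 0.102). With lists of equal length it was 0.06 (adjusted p = 0.786). Within the gene some regions were called only or mainly in 1 line, and others in all 22 libraries. Region chr6:128493580-128494477, 26.6 kb from the start, was called in 12 of 12 KMS11 libraries, TKO included, at 325 to 716 bp, and in 0 of 10 KMS34 libraries (adjusted p = 1.18e-06). Regions chr6:128327776-128328275 (309 ± 65.7 bp in KMS34 DMSO, adjusted p = 1.01e-05) and chr6:128477977-128478940 (473 ± 172 bp, adjusted p = 0.000157) were called in 10 of 10 KMS34 libraries, and in 0 and 1 KMS11 libraries. The latter was not called with lists of equal length (adjusted p = 0.627).

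PTPRM, of the same adhesion group, had 2951 ± 430 bp in KMS11 and 2874 ± 631 bp in KMS34 (log2 difference −0.14, SE 0.18, adjusted p = 0.624). Its first start was called in all 22 libraries. The second start, 379.7 kb into the gene and shown above, lay in chr18:7946745-7947342, which was called in 10 of 10 KMS34 libraries and in 1 of 12 KMS11 libraries. In DMSO this region held 413 ± 114 bp in KMS34 and 0 in KMS11 (adjusted p = 0.000132), but it was not called with lists of equal length (adjusted p = 0.613). Region chr18:8367314-8367644 was also higher in KMS34 (280 ± 65.1 bp against 0, adjusted p = 0.00586), and chr18:7600352-7601463 was higher in KMS11 (347 ± 187 bp against 0, adjusted p = 0.0148). The latter call was lost without KMS11 DMSO day 4 replicate 1 (adjusted p = 0.0677) or KMS11 DMSO day 10 replicate 2 (adjusted p = 0.0543).

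PTPRG, the contactin receptor with a carbonic anhydrase-like domain, had 4623 ± 830 bp in KMS11 and 5275 ± 1124 bp in KMS34 (log2 difference 0.08, SE 0.13, adjusted p = 0.685). With 50 kb either side of the gene it passed by limma (0.27, adjusted p = 0.0295), and with lists of equal length the difference was −0.17. Its start was called in all libraries, and the first 20 kb after it differed between the lines. Region chr3:61580878-61581828, 19.8 kb past the start, was called in 12 of 12 KMS11 libraries and in 0 of 10 KMS34 libraries (562 ± 143 bp in DMSO, adjusted p = 8.34e-07). Region chr3:61574659-61575258 was called in 10 of 12 and 0 of 10 (422 ± 66.1 bp, adjusted p = 0.000152). Farther in, chr3:61904067-61904705 was called in 10 of 10 KMS34 libraries and 1 of 12 KMS11 libraries (525 ± 114 bp in KMS34 DMSO, adjusted p = 9.96e-05).

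PTPRJ, a receptor with fibronectin repeats like PTPRO, had the smallest difference of the 10, with 2279 ± 573 bp in KMS11 and 2299 ± 379 bp in KMS34 (log2 difference −0.06, SE 0.14, adjusted p = 0.81). Only chr11:48093715-48094389 of its 6 tested regions was called by limma, in 11 of 12 KMS11 libraries and 0 of 10 KMS34 libraries (404 ± 129 bp in KMS11 DMSO, adjusted p = 5.62e-05). PTPRO had 2527 ± 731 bp in KMS11 and 1747 ± 530 bp in KMS34 (log2 difference −0.58, SE 0.22, adjusted p = 0.0616). It passed with day 0 libraries added, 6 against 6 (−0.63, adjusted p = 0.012). The day 0 KMS11 libraries took part in choosing PTPRO, so nothing is read from that setting. With quantile normalization PTPRO passed by limma (−0.57, adjusted p = 0.0479), and with lists of equal length the difference was 0.02. It also passed, at adjusted p of 0.0322 to 0.0432, without any one of 6 libraries: KMS11 DMSO day 4 replicate 2, KMS34 DMSO day 4 replicate 2, either KMS11 day 0 replicate or either KMS11 NSD2LDD day 10 replicate. Its regions chr12:15517144-15518389 (729 ± 497 bp in KMS11 DMSO, adjusted p = 0.00143) and chr12:15440387-15441164 (240 ± 302 bp, adjusted p = 0.00206) were called in no KMS34 library. The former was lost with lists of equal length (adjusted p = 0.0829) and with −log10 q of 5 or more (adjusted p = 0.0565). The latter had 331 and 628 bp at day 10 and 0 bp in both day 4 libraries of KMS11 DMSO. PTPRO was chosen for peaks in day 0 KMS11 over TKO, the same line as the higher arm. The p-values of both regions are therefore descriptions.

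PTPRC was the member lower in KMS34, with 3600 ± 943 bp in KMS11 against 2122 ± 858 bp (log2 difference −0.87, SE 0.22, adjusted p = 0.0079). The values overlapped: KMS11 DMSO libraries had 2433, 4370, 4361 and 3234 bp, and KMS34 DMSO libraries had 2379, 871, 2417 and 2821 bp. Without scaling the call was lost (−0.78, adjusted p = 0.114), and with lists of equal length the difference was −1.81 (adjusted p = 5.04e-05). Without KMS34 DMSO day 4 replicate 1, the library at 871 bp, it was −0.57 (adjusted p = 0.0399). Its listed start was called in no library. The strongest peak lay 43.0 kb inside the gene, at chr1:198681480-198682575, was called in all 22 libraries and ranked within the top 12.9% of every list by −log10 q, with a median of 1.30% in KMS11 and 3.79% in KMS34. Of its 10 tested regions 4 were lower and 1 was higher in KMS34. Among the lower ones were chr1:198700965-198702467 (1262 ± 238 bp in KMS11 against 419 ± 405 bp, log2 difference −1.88, SE 0.49, adjusted p = 0.00923) and chr1:198660585-198661027 (217 ± 149 bp against 0, adjusted p = 0.00717, and 0.0504 with lists of equal length). Region chr1:198699386-198699723 was higher in KMS34 (216 ± 151 bp against 0, adjusted p = 0.0111), a call lost without KMS34 DMSO day 10 replicate 1 (adjusted p = 0.0505) and with day 0 libraries added (adjusted p = 0.0618).

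PTPRN2, the vesicle protein, had 310 to 551 bp in KMS11 DMSO and 1897, 8211, 11552 and 1288 bp in KMS34 DMSO (428 ± 137 against 5737 ± 4982, SD, n = 4 each; log2 difference 2.67, SE 0.44, adjusted p = 0.000257). Groups did not overlap, yet KMS34 itself spread widely, and across its 10 libraries the value followed the covered Mb of the library (Pearson r = 0.84, a description). The other members ran with covered Mb too, at r from 0.48 (PTPRC) to 0.93 (PTPRG) in KMS34. In the 10 KMS11 libraries other than TKO, r ran from 0.58 (PTPRN2) to 0.95 (PTPRG), with no value for PTPRS. With lists shortened to equal length the sign turned: the 4 KMS34 DMSO libraries then had 0 bp, KMS11 had 291 to 310 bp, and the log2 difference was −1.37 (adjusted p = 0.119). The KMS11 value was mostly a single region, chr7:158587615-158588033, at the end of the gene with the higher coordinate. It was called in 12 of 12 KMS11 libraries at 274 to 391 bp and in 0 of 10 KMS34 libraries (adjusted p = 1.78e-05). KMS34 coverage came from many regions inside the gene, among them chr7:157990692-157992012 (653 ± 436 bp in DMSO against 0, adjusted p = 0.000996). Another, chr7:158355493-158355958, was called in only 2 of 10 KMS34 libraries, both in DMSO (179 ± 217 bp against 0, adjusted p = 0.00136). It passed the filter on low values through these libraries alone.

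Taking the regions of the 10 genes as a set, 29 of 141 tested regions were seen in KMS11 only (20.6%, against 13.8% of 69187 regions) and 55 in KMS34 only (39.0% against 28.1%). Regions called in all 22 libraries made up 10.6% of the members' regions and 20.1% of all. These shares are a description, since the members' regions were not drawn at random and KMS34 lists are longer.

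**Figure D3:**
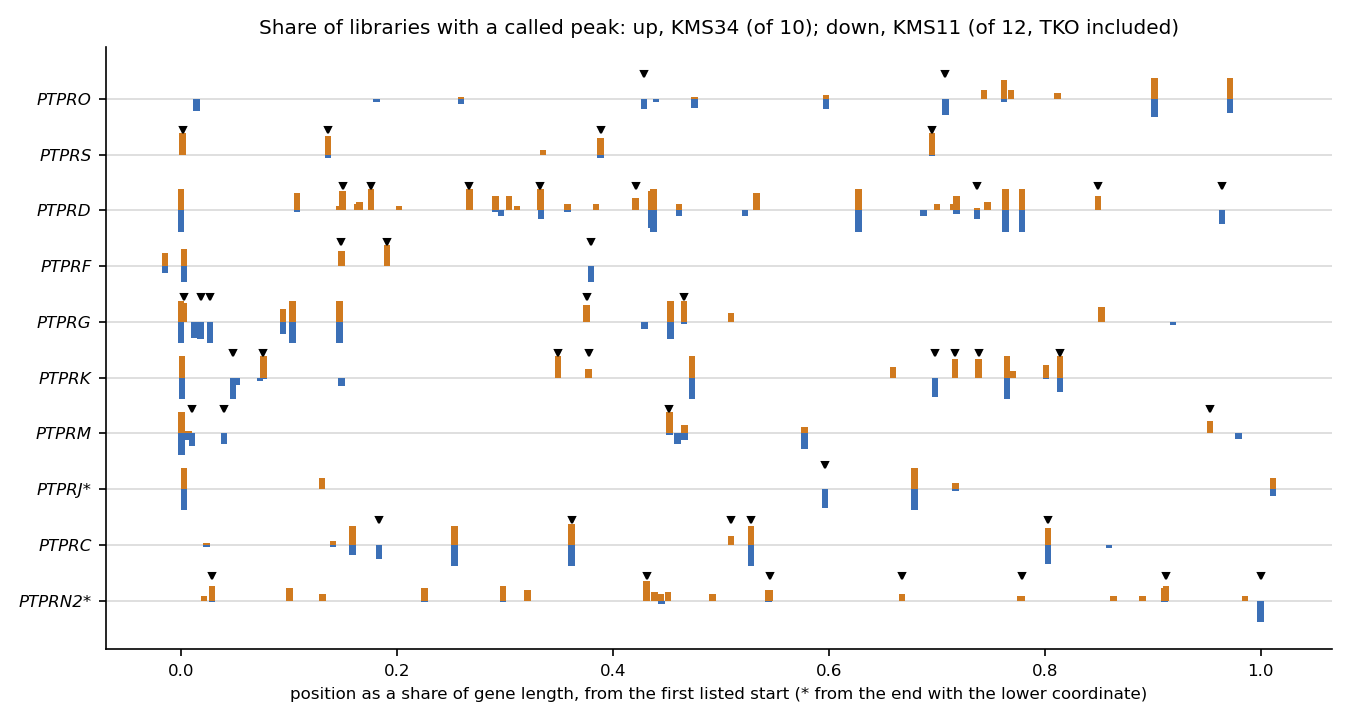
For every tested region the upward orange bar is the share of the 10 KMS34 libraries, and the downward blue bar the share of the 12 KMS11 libraries, in which it was called, with full share at the same height for both. The x axis is the position as a share of gene length from the first listed start (from the end with the lower coordinate for the starred genes), triangles mark the 47 regions that differed between lines in DMSO by limma, and 1-sided bars beside 2-sided ones show line-restricted regions next to shared ones in PTPRG, PTPRK and PTPRD.

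Listed starts were available for 8 of the 10 members, 12 starts in all. Of these, 4 were called in all 22 libraries: those of PTPRG and PTPRK and the first starts of PTPRD and PTPRM, at 68.7% to 80.7% G or C over the 300-base start window. Another 4 were called in none: PTPRC, the first start of PTPRO, and the other two starts of PTPRD, at 33.7% to 66.7% G or C. The median of all 35116 listed start windows was 58.7%. The share of all these windows called in every library or in none was not counted, so nothing is read from the 2 counts or their G or C. PTPRS, at 81.3%, was called in KMS34 alone. The start of PTPRF, at 68.7%, was called in 5 of 10 KMS11 libraries other than TKO, in 0 of 2 TKO libraries and in 2 of 10 KMS34 libraries. The region over it, chr1:43530611-43531818, was called in 17 libraries, of which 7 had a peak in the start window itself. The most widely called regions of PTPRG (chr3:61560482-61562455), PTPRK (chr6:128518795-128521176) and PTPRM (chr18:7566592-7568692) held their starts, and each was called in 22 libraries. Also called in 22 libraries were chr11:47980478-47981701 at the lower-coordinate end of PTPRJ and chr9:8857059-8858428 in PTPRD, 1755.3 kb from the first start. The second start of PTPRO was called in 3 of 10 KMS34 libraries and in no KMS11 library.

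NSD2LDD was compared with DMSO within each line, 4 libraries against 4 over both days, to ask whether the degrader moved the same genes. No member passed by gene in either line, where limma called 0% of 16735 genes in both comparisons (586 genes in KMS11 and 1045 in KMS34 had an unadjusted p under 0.05, among them 1 and 0 members). The largest member difference in KMS11 was PTPRK, with 4365, 3988, 2439 and 4749 bp in DMSO and 5552, 5738, 3946 and 5567 bp under NSD2LDD. Its groups overlapped, and the log2 difference was 0.41 (SE 0.12, adjusted p = 0.772). PTPRO, the gene without peaks in TKO, had 3149 ± 1054 bp under NSD2LDD and 2527 ± 731 bp in DMSO in KMS11 (log2 difference 0.25, SE 0.22, adjusted p = 1). Without NSD2LDD day 10 replicate 2 it was 0.04, without replicate 1 of that group 0.45, and with lists of equal length −0.29. PTPRS, the gene with peaks in TKO, had 0 bp in all 8 KMS11 libraries of the 2 arms. The remaining members differed by −0.16 to 0.18 on the log2 scale in KMS11.

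In KMS34, PTPRC had 2600 ± 347 bp under NSD2LDD and 2122 ± 858 bp in DMSO (log2 difference 0.38, SE 0.22, adjusted p = 0.908), and the difference was 0.09 without DMSO day 4 replicate 1, the library at 871 bp. PTPRS had 2348 ± 761 bp under NSD2LDD and 2818 ± 962 bp in DMSO (−0.23, SE 0.25), and PTPRO had 1952 ± 286 against 1747 ± 530 bp (0.19, SE 0.22). PTPRD differed by 0.29 (SE 0.18) and PTPRM by −0.28 (SE 0.18), each with overlapping groups. A test of whether the NSD2LDD effect differed between the lines called 0 of 10 members and 0% of all genes (554 genes and 0 members at an unadjusted p under 0.05). By region it called 0 of 141 and 0.00578% of all.

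**Figure D4:**
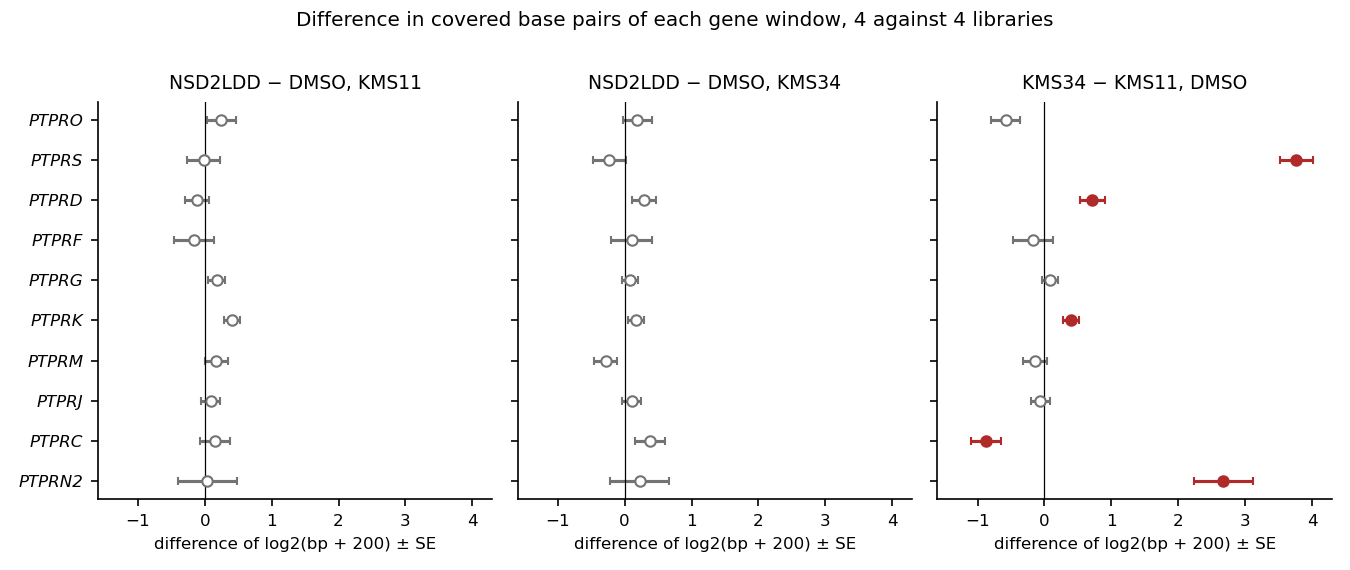
Points are differences of log2(covered bp + 200) between groups of 4 libraries with their standard errors, filled red where limma's adjusted p is under 0.05. The 2 left panels hold no filled point, and the right panel has PTPRS, PTPRN2, PTPRD and PTPRK to the right of 0 and PTPRC to the left; PTPRN2 turns to −1.37 and PTPRK to 0.06 with lists of equal length.

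At single regions, 3 of 141 member regions differed between NSD2LDD and DMSO in KMS34 by limma, 2 higher and 1 lower under NSD2LDD. Over all, 0.986% of 69187 regions were called (0.642% higher and 0.344% lower). In PTPRK, chr6:128156321-128157151 held 0 and 0 bp at day 4 and 0 and 156 bp at day 10 in DMSO, and 673 and 708 bp at day 4 and 197 and 661 bp at day 10 under NSD2LDD, with 0 bp in both day 0 libraries and in every KMS11 library (log2 difference 2.30, SE 0.37, adjusted p = 0.0135). In PTPRJ, chr11:48005163-48005756 had a peak in 1 of the 4 DMSO libraries and in all 4 with NSD2LDD (61.0 ± 122 against 295 ± 125 bp, log2 difference 1.51, SE 0.32, adjusted p = 0.0435). In PTPRN2, chr7:158355493-158355958 was called in 2 of 4 DMSO libraries, both of day 10, and in 0 of 4 NSD2LDD libraries (adjusted p = 0.0382). It was called in no other library. Each of the 3 regions passed the filter on low values only through the arm in which it was higher. Their p-values are descriptions. In a fit on the KMS34 libraries alone none of the 3 was called, with adjusted p of 0.737, 0.797 and 0.799, while the log2 differences of the PTPRK and PTPRJ regions were 2.28 and 1.49, about as large as in the fit over all libraries. The PTPRK region was lost also with peaks of −log10 q of 5 or more (adjusted p = 0.0785), and those of PTPRJ and PTPRN2 in 19 of 22 and 17 of 20 fits without a library. In KMS11, 0 of 141 member regions were called (0.0694% of all regions; 11 members and 3321 regions at an unadjusted p under 0.05).

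Day 10 was compared with day 4 over 8 libraries each, with line and arm in the model. No member was called by gene (0% of all genes; 795 genes and 1 member at an unadjusted p under 0.05) or by region (0.12% of all regions). The member with the lowest p was PTPRM, with 3131 ± 804 bp at day 4 and 2646 ± 470 bp at day 10 (log2 difference −0.27, SE 0.13, adjusted p = 1).

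Related genes were counted beside the members in the line comparison, all by limma at adjusted p under 0.05, where of all genes 15.5% were higher and 11.5% lower and the median was 0.038. Among the 10 other receptor-type phosphatases, 4 were higher in KMS34 and 0 lower, with a median log2 difference of 0.72. The smallest p was that of PTPRZ1, the relative of PTPRG, with 1819 ± 398 bp in KMS11 and 4709 ± 988 bp in KMS34 (1.19, SE 0.13, adjusted p = 4.63e-06). PTPRR (1.19, adjusted p = 0.00725), PTPRU (1.19, adjusted p = 0.0223), the adhesion receptor of the PTPRK group, and PTPRE (0.66, adjusted p = 0.0309) were the others. Among 17 non-receptor phosphatases 3 were higher and 1 lower, with a median of 0.10, a share near that of all genes. PTPN6, which carries inhibitory signals in blood cells, had 1540 ± 216 and 3304 ± 939 bp (0.89, adjusted p = 6.54e-06), and PTPN7 had 1220 ± 437 and 3224 ± 878 bp (1.19, adjusted p = 0.000684). PTPN2 was lower in KMS34 (−0.73, adjusted p = 0.00678), and PTPN20 was at 0 in KMS11 DMSO and 273 ± 207 bp in KMS34 (adjusted p = 0.0121).

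Of 35 tested ligands and partners of these receptors, 11 were higher and 7 lower in KMS34, with a median of 0.25. Of all genes, 15.5% were higher and 11.5% lower, with a median of 0.038. GPC6, a heparan sulfate proteoglycan, had 7643 ± 1547 bp in KMS11 and 2759 ± 370 bp in KMS34 (−1.49, SE 0.14, adjusted p = 1.09e-06). TRIO, an exchange factor that binds the LAR phosphatases, had 7256 ± 754 and 3416 ± 341 bp (−1.14, SE 0.11, adjusted p = 1.95e-06). SLITRK2, a synaptic partner of the LAR group, had 1358 ± 121 and 48.0 ± 96.0 bp (−2.81, SE 0.33, adjusted p = 8.14e-06). The contactin CNTN6 was higher in KMS34, with 273 ± 331 against 1645 ± 726 bp (2.09, SE 0.23, adjusted p = 4.69e-06). Of 11 tested Src-family kinases and their regulators, on which CD45 acts, BLK (−0.75, adjusted p = 0.0012) and FGR (−1.57, adjusted p = 0.00615) were lower and LYN (0.43, adjusted p = 0.00584) was higher. NSD2LDD against DMSO, the difference of that effect between lines, and day 10 against day 4 called 0 genes of these 4 lists, as they called none of all genes.

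Genes whose covered bp ran most alike with those of PTPRO over the 11 group means were MYRFL, SLC4A4, COL4A5, SGMS2 and PRTFDC1, with Pearson r from 0.970 to 0.975. In 3 of these, SLC4A4, COL4A5 and SGMS2, both TKO libraries had 0 bp. For PTPRS they were OCSTAMP, NLRP12, JAKMIP3, MOXD1 and GABRR1, with r from 0.986 to 0.994. All of these but MOXD1 had 0 bp in the 10 KMS11 libraries other than TKO. These correlations are descriptions over 11 means that share the same libraries, chosen as the highest of all tested genes.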

How the data were processed

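ATAC-seq peak lists of 22 libraries were used. Per the submitters' processing notes, the genome build was hg38 and the tools named, without versions, were MACS3, BWA, fastp, Picard, deepTools and SAMtools; their settings are not stated there. Each list is the authors' narrowPeak table with, per peak, a deposited score, a deposited fold enrichment, and the authors' −log10 p and −log10 q. Peaks were deposited for each library separately, so replicates can be compared. No read counts were used, so depth is unknown and list length stands in for it.

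Peaks were intersected with gene bodies and 5 kb on either side (RefSeq, GRCh38.p14), and merged over libraries into regions. Covered bp were taken as log2(bp + 200) for genes and log2(bp + 100) for regions, less each library's median over features covered in all 22. Differences on this scale understate those of low values. limma 3.58.1 in R 4.3.3 (trend and robust options) was fitted with 11 group means to the 16735 genes and 69187 regions covered in at least 2 libraries, with Benjamini-Hochberg adjustment over all of them and a threshold of 0.05. Scripts ran in Python 3.11.15 and were tested on simulated data.

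The members and gene lists were chosen with earlier results of these data known, so the TKO contrast is a description and no p-value is given for it. Named regions are up to 3 per member, by adjusted p, among those called in the line comparison or under NSD2LDD, with the PTPRO and PTPRS regions that differed in both replicates between TKO and day 0 and each member's most widely called region; in each list up to 4 called genes are named, and 5 genes most alike by Pearson r. The motifs and the starts shown were chosen after their sequences and values had been seen. Exon positions were not used here. Alternatives changed the peak threshold, list length, scaling, pseudocount, filter, window, model and libraries.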

Additional observations from a re-analysis of the deposited data

Results flagged for a closer look

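In 4 of 38 sets of 4 libraries (a member in an arm of a line) 1 library stood far from the other 3 by Dixon's 95% criterion. Chance gives about 1 in 20 such sets. PTPRK in KMS11 under NSD2LDD had 3946 bp in day 10 replicate 1 against 5552, 5567 and 5738 bp in the others. In the same library PTPRJ had 1949 bp against 2562, 2580 and 2601 bp. That library's peaks covered 18.0 Mb, the least of its arm, whose highest value was 27.1 Mb; the part of this in either value was not tested. PTPRN2 in KMS11 under NSD2LDD had 926 bp in day 10 replicate 2 against 325, 330 and 335 bp. PTPRD in KMS34 under NSD2LDD had 8324 bp in day 10 replicate 2 against 9980, 10242 and 10313 bp.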

How the results depend on the processing

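Of 758 values of single genes and regions under other settings, 702 kept their direction and side of the threshold, 32 lost a call, 3 gained one and 21 changed sign; of 1338 values with a library left out these were 1271, 44, 6 and 17. The cause of these changes was not tested. TKO counts restate the choice of the members under each setting and support nothing. With lists of equal length 63 member regions could be tested in place of 141. The line comparison then called 2 member genes in place of 5 and 19 member regions in place of 47. The TKO contrast called 0 genes in place of 2 and 2 regions in place of 5. NSD2LDD in KMS34 called 1 region in place of 3, and day 1 in place of 0. With that setting line differences changed sign for PTPRO (0.022), PTPRF (0.14), PTPRG (−0.17), PTPRN2 (−1.37) and the PTPRD region chr9:9847557-9848092 (−0.062, a value that depends on the pseudocount). NSD2LDD differences changed sign in KMS11 for PTPRO (−0.29), PTPRD (0.065), PTPRF (0.03) and PTPRJ (−0.085), in KMS34 for PTPRF (−0.014) and PTPRJ (−0.33), and the day difference for PTPRM (0.08). With −log10 q of 5 or more the TKO contrast called 1 gene and NSD2LDD in KMS34 1 region, and the sign changed for PTPRJ between lines (0.07), PTPRM under NSD2LDD in KMS11 (−0.043) and PTPRF in KMS34 (−0.18). Without scaling the line comparison called 3 genes, and PTPRJ was 0.032. Calls scored as present or absent could be tested for 3 member genes and 126 member regions. They gave 1 gene between lines. By region they gave 1 and 5 for NSD2LDD in KMS11 and KMS34, 3 for its difference between lines and 3 for day. Quantile normalization gave 1 region for that difference, 1 for day and 8 for TKO, and PTPRG under NSD2LDD in KMS34 was −0.022. Fits within a line gave 0 of 107 tested member regions for NSD2LDD in KMS34 and 2 of 70 for TKO. NSD2LDD in KMS34 gave 1 region with a larger pseudocount, with no filter, or with at least 4 libraries covered. NSD2LDD in KMS11 gave 1 region with a smaller pseudocount or plain limma. PTPRJ between lines was 0.038 with 50 kb windows and 0.047 with day 0 added, when PTPRF was 0.21. PTPRN2 under NSD2LDD in KMS11 was −0.007 in the gene body alone. With regions covered over at least 50% of their length, PTPRO lost 2 and PTPRS gained 1.

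Same-numbered libraries of a line deviated together at r over 0.1 in 4 of 25 pairs of groups (−0.21 to 0.27). Among pairs of the same day, r was 0.27 for KMS11 DMSO and NSD2LDD at day 10. It was 0.19 for day 0 KMS11 and TKO, and 0.15 for the KMS34 arms at day 4. For the KMS11 arms at day 4 it was 0.08, and for the KMS34 arms at day 10 −0.10. Between groups of different lines r ran from −0.11 to 0.12, so values over 0.1 occurred there too. Whether the numbers pair libraries of the same day was thus left unsettled. The replicate block has a term for each line and does not model such a pairing. With the replicate block the line comparison called 3 genes (PTPRD and PTPRK lost), lost the PTPRM region chr18:7600352-7601463 (adjusted p = 0.0878), and NSD2LDD in KMS34 called 1 region. Leaving out each library gave 1 to 4 regions for NSD2LDD in KMS34, 1 to 5 for TKO, and 0 to 1 for NSD2LDD in KMS11 and for day. Line differences then ran from −0.55 to 0.21 for PTPRF, from −0.005 to 0.17 for PTPRG and from −0.18 to 0.056 for PTPRJ. For PTPRS under NSD2LDD in KMS11, at 0 bp in all 8 libraries, the fitted values of −0.12 to 0.08 come from scaling alone. NSD2LDD differences in KMS11 ran from 0.04 to 0.45 for PTPRO, −0.28 to 0.042 for PTPRD, −0.03 to 0.20 for PTPRJ and −0.14 to 0.21 for PTPRN2, and in KMS34 from −0.28 to 0.49 for PTPRF and −0.41 to 0.86 for PTPRN2. Without read depth, an uncalled region sets no limit on accessibility.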
